A study of Mus musculus with 35 samples.

Results

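The genes for the mouse Fc gamma receptors were followed through 6 treatments of cultured macrophages: Fcgr1, Fcgr3 and Fcgr4, which encode activating receptors, Fcgr2b, which encodes the inhibitory receptor, Fcer1g, which encodes the common signalling chain, and Syk, which encodes the kinase that acts after that chain. These 6 genes were chosen by symbol among the 47069 gene identifiers of each library, and each symbol matched 1 identifier. All 6 were among the 11354 genes with a mean of at least 1 FPKM (fragment counts divided by gene length and by the library's total) that were tested. Bone marrow-derived macrophages (BMDMs) of C57BL/6 mice, grown in L929-conditioned medium, were sampled as total RNA after 24 h, with 17 wild-type libraries and 18 libraries labelled AMPKα1-/-, in which a catalytic subunit of the energy-sensing kinase AMPK is meant to be absent. The treatments were vehicle (DMSO), the synthetic glucocorticoid dexamethasone (Dex, 100 nM), the bacterial cell wall component lipopolysaccharide (LPS, 100 ng/ml), LPS + Dex, DAMPs at 1 µg/ml, which the labels do not define further, and DAMPs + Dex. There were 3 libraries for each treatment and genotype, but 2 for LPS in wild type (replicates 2 and 3), where replicate 1 was not analysed here. Libraries held 15837203 to 31955298 fragments (median 19973568) as read from the steps of the FPKM values, so for a gene 1 kb long each fragment added 0.0313 to 0.0631 FPKM.

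Fc gamma receptors bind the constant part of IgG on opsonised particles and immune complexes. The activating receptors carry no signalling motif of their own and depend on the Fcer1g chain, whose immunoreceptor tyrosine-based activation motif (ITAM) recruits Syk once it is phosphorylated, which leads to phagocytosis and cytokine release. Fcgr2b carries an inhibitory motif (ITIM) in its own tail that recruits the lipid phosphatase encoded by Inpp5d, so a macrophage that holds both kinds of receptor responds according to their balance. Interferon gamma and bacterial products are known to raise Fcgr1, and glucocorticoids are known to act on macrophage genes through the glucocorticoid receptor, Nr3c1.

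In GRCm38, Fcgr2b (ENSMUSG00000026656, chr1:170958617-170976547, minus strand), Fcgr4 (ENSMUSG00000059089, chr1:171018920-171029761, plus strand), Fcgr3 (ENSMUSG00000059498, chr1:171051174-171064935, minus strand) and Fcer1g (ENSMUSG00000058715, chr1:171229572-171234365, minus strand) lie close together on chromosome 1. Fcgr1 (ENSMUSG00000015947, chr3:96282909-96293969, minus strand) and Syk (ENSMUSG00000021457, chr13:52583173-52648792, plus strand) lie elsewhere. The upstream windows of Fcgr1 and Fcgr4 are shown because these are the activating receptor genes that lay furthest apart in their values under LPS + Dex, set against LPS alone. They were taken from RefSeq (GRCm38.p6) as the up to 250 bases before a start site, cut where an annotated exon began, and are written 5′ to 3′ on the strand of the gene. Capitals mark every match, on either strand, to GAGGAA (the core bound by PU.1), TTCNNNGAA (the interferon gamma-activated site, GAS), GAAA followed after any 2 bases by GAAA (a repeat of the interferon-stimulated response element type) or AGAACA (a glucocorticoid receptor half-site).
Fcgr1, chr3:96293970-96294219, minus strand: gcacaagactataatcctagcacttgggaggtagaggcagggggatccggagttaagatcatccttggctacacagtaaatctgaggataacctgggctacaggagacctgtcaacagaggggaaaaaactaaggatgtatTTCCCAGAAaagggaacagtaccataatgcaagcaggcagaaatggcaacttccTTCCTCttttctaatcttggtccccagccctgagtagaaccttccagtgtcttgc
Fcgr4, chr1:171018676-171018919, plus strand: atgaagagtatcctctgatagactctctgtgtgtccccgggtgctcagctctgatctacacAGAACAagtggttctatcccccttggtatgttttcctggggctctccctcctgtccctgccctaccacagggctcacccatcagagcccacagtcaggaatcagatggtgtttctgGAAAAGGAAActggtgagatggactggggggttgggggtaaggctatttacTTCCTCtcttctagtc

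The Fcgr1 window held 1 GAS match, which begins 109 bases before the start site, and the PU.1 core on the other strand 55 bases before it. In the Fcgr4 window the glucocorticoid receptor half-site began 189 bases, the GAAA repeat 73 bases and the PU.1 core on the other strand 22 bases before the start site. No motif overlapped another. Among 32851 windows of 250 bases before RefSeq start sites, 23.3% held GAGGAA, 7.02% TTCNNNGAA, 2.98% the GAAA repeat and 16.1% AGAACA on either strand. The windows of Fcer1g (234 bases) and of a Syk start site (221 bases) held none of these letters. The start sites of Fcgr2b and Fcgr3, and another, more upstream start site of Syk, lay within annotated exons, so no window was read for them. A match describes letters, not a bound site.

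The libraries labelled AMPKα1-/- were first checked for Prkaa1, the gene of AMPKα1. In vehicle it stood at 15.9, 11.8 and 15.3 FPKM in wild-type replicates 1, 2 and 3 and at 14.8, 16.5 and 15.4 FPKM in those labelled AMPKα1-/-, and the difference in log2(FPKM + 1) was 0.12 (adjusted p = 1.0, limma). It did not pass the test in any of the 6 treatments, and Prkaa2 (AMPKα2) was at most 0.13 FPKM in any library. FPKM summed over a whole gene cannot check the deletion of a part of it, so the genotype is given below as the label only. The glucocorticoid control genes all rose with Dex in wild type (5 of 5, median log2 difference 3.70), among them Tsc22d3 by 3.70 and Fkbp5 by 6.88. The 5 LPS control genes all rose with LPS (median 8.85), Il6 by 8.85, and all 5 were lower in LPS + Dex than in LPS (median -6.82).

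All 10 macrophage marker genes were above 1 FPKM in at least 1 library, and their most abundant gene, Lyz2, stood between 10343 and 35906 FPKM. Of 8 mast cell and basophil markers, cells in which Fcer1g also serves the IgE receptor, 7 stayed under 1 FPKM in every library, and Fcer1a, Cma1 and Tpsb2 were listed at 0. Of the dendritic cell markers 6 of 7 stayed under 1 FPKM in every library, as did all 8 T and NK cell markers, and the 6 fibroblast markers summed to at most 24.7 FPKM. Of 8 B cell markers, Cd79a, Ms4a1, Pax5, Ebf1 and Cr2 stayed under 1 FPKM in every library, but Ighm stood at 67.4 to 72.8 FPKM in wild-type vehicle. Of 11 neutrophil markers, Ly6g, Mpo, Elane, Cxcr2 and Retnlg stayed under 1 FPKM in every library, but S100a8 stood at 478 to 1147 FPKM in wild-type LPS + Dex. In bulk RNA, fewer cells of a type and less RNA per cell cannot be told apart. Replicates are cultures from individual mice as far as the study states, and the p-values measure the spread between these samples.

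Wild-type DAMPs replicate 3, Dex replicate 2 and LPS + Dex replicate 2 stood apart from their groups for several of these genes. DAMPs replicate 3 held 264 FPKM of Fcgr1 and 62.7 of Fcgr4, against 101 and 108, and 18.9 and 19.1, in replicates 1 and 2. Dex replicate 2 held 35.1 FPKM of Fcgr2b and 358 of Fcgr3, against 74.9 and 74.5, and 461 and 440, in replicates 1 and 3. LPS + Dex replicate 2 held 99.6 FPKM of Fcgr1, 69.1 of Fcgr2b and 75.2 of Fcgr4, against 61.3 and 52.0, 131 and 117, and 37.6 and 39.4, in replicates 1 and 3.

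Under vehicle, Fcer1g was the most abundant of the 6 genes, followed by Fcgr3. The wild-type means were 1099 ± 167 FPKM for Fcer1g, 510 ± 29.4 for Fcgr3, 109 ± 6.50 for Fcgr2b, 108 ± 6.92 for Syk, 80.6 ± 19.5 for Fcgr1 and 8.74 ± 1.15 for Fcgr4 (SD, n = 3). In this order Fcgr2b and Syk overlapped between libraries, as did Syk and Fcgr1, and the other neighbours did not. In wild-type LPS the order became Fcer1g, Fcgr2b, Fcgr1, Syk, Fcgr3 and Fcgr4, in which only Syk and Fcgr3 overlapped. In LPS + Dex it was Fcer1g, Syk, Fcgr2b, Fcgr3, Fcgr1 and Fcgr4, with overlap from Fcgr2b down to Fcgr4 between each pair of neighbours, all of which rested on replicate 2. The libraries labelled AMPKα1-/- had the order Fcer1g, Fcgr3, Syk, Fcgr2b, Fcgr1 and Fcgr4 in vehicle, in which only Fcgr2b and Fcgr1 overlapped.

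**Figure D1:**
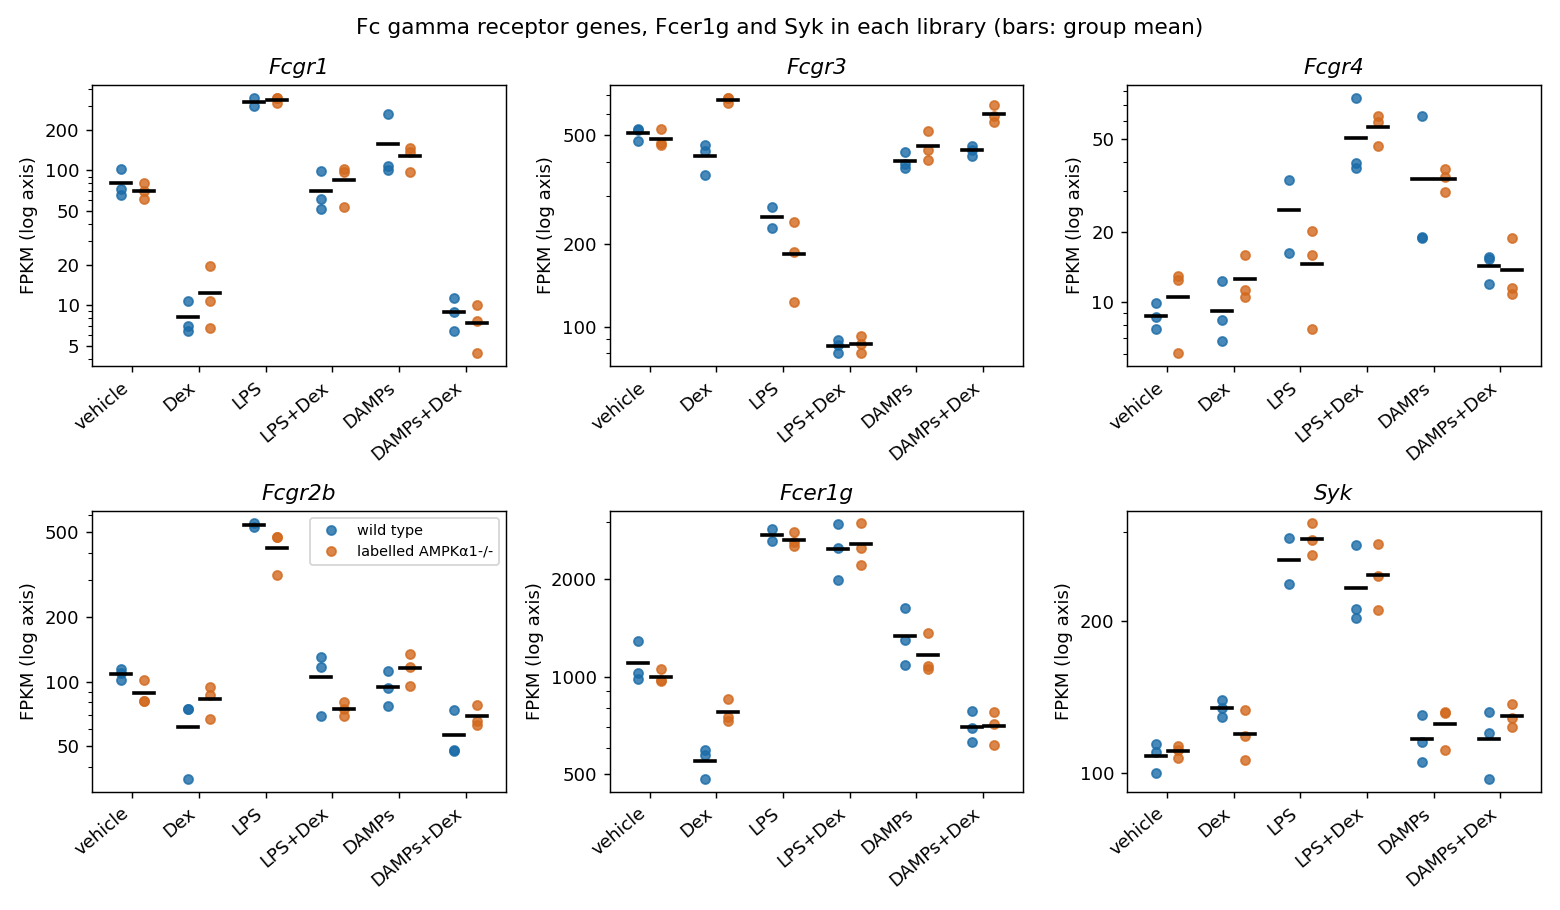
FPKM (log axis) of the 6 genes in each of 35 libraries by treatment, 1 panel per gene, with wild-type and AMPKα1-/--labelled libraries side by side and bars at the group means. Fcgr3 fell in every LPS-treated group while Fcgr2b and Fcgr1 peaked in LPS alone, and Fcer1g and Syk stayed high in both LPS and LPS + Dex.

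LPS moved all 6 genes in wild-type BMDMs, 5 up and Fcgr3 down, and Dex added to LPS lowered 3 of the receptor genes while leaving Fcer1g and Syk with no difference past the test. In wild type, 6 of 6 genes passed the test for LPS against vehicle, where 55.7% of all genes tested passed it: 5 were higher (19.9% of all genes) and 1 lower (35.8%). For Dex against vehicle 3 of 6 passed, all lower, where 30.9% of all genes passed, 15.9% higher and 14.9% lower. For LPS + Dex against LPS 3 passed, all lower, where 34.1% of all genes passed, 16.6% higher and 17.5% lower. For LPS + Dex against vehicle 4 of 6 passed (54.2% of all genes). For DAMPs against vehicle 1 passed, higher, where 2.01% of all genes passed, 1.22% higher and 0.793% lower. For DAMPs + Dex against DAMPs 3 passed (24.3% of all genes). The test of whether the Dex difference depended on LPS passed for 4 of 6 genes (32.0% of all genes).

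In the libraries labelled AMPKα1-/-, 5 of 6 genes passed for LPS against vehicle (64.3% of all genes), 2 for Dex against vehicle (27.9%) and 4 for LPS + Dex against LPS (37.7%). There, 4 passed for LPS + Dex against vehicle (57.4% of all genes), 1 for DAMPs against vehicle (4.13%) and 5 for DAMPs + Dex against DAMPs (25.3%). The dependence of the Dex difference on LPS passed for 3 of 6 (28.4% of all genes). The shares of all genes are high for the LPS comparisons, so a count of members alone says little there, and the sizes below are the result. The median of all genes shifted by -0.19 in log2 for LPS against vehicle in wild type and by -0.30 in the libraries labelled AMPKα1-/-. With libraries centred on one median, the wild-type LPS differences were 2.16 for Fcgr1, 2.44 for Fcgr2b, -0.87 for Fcgr3, 1.48 for Fcgr4, 1.48 for Fcer1g and 1.43 for Syk, and no LPS call of a member changed in either genotype.

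**Figure D2:**
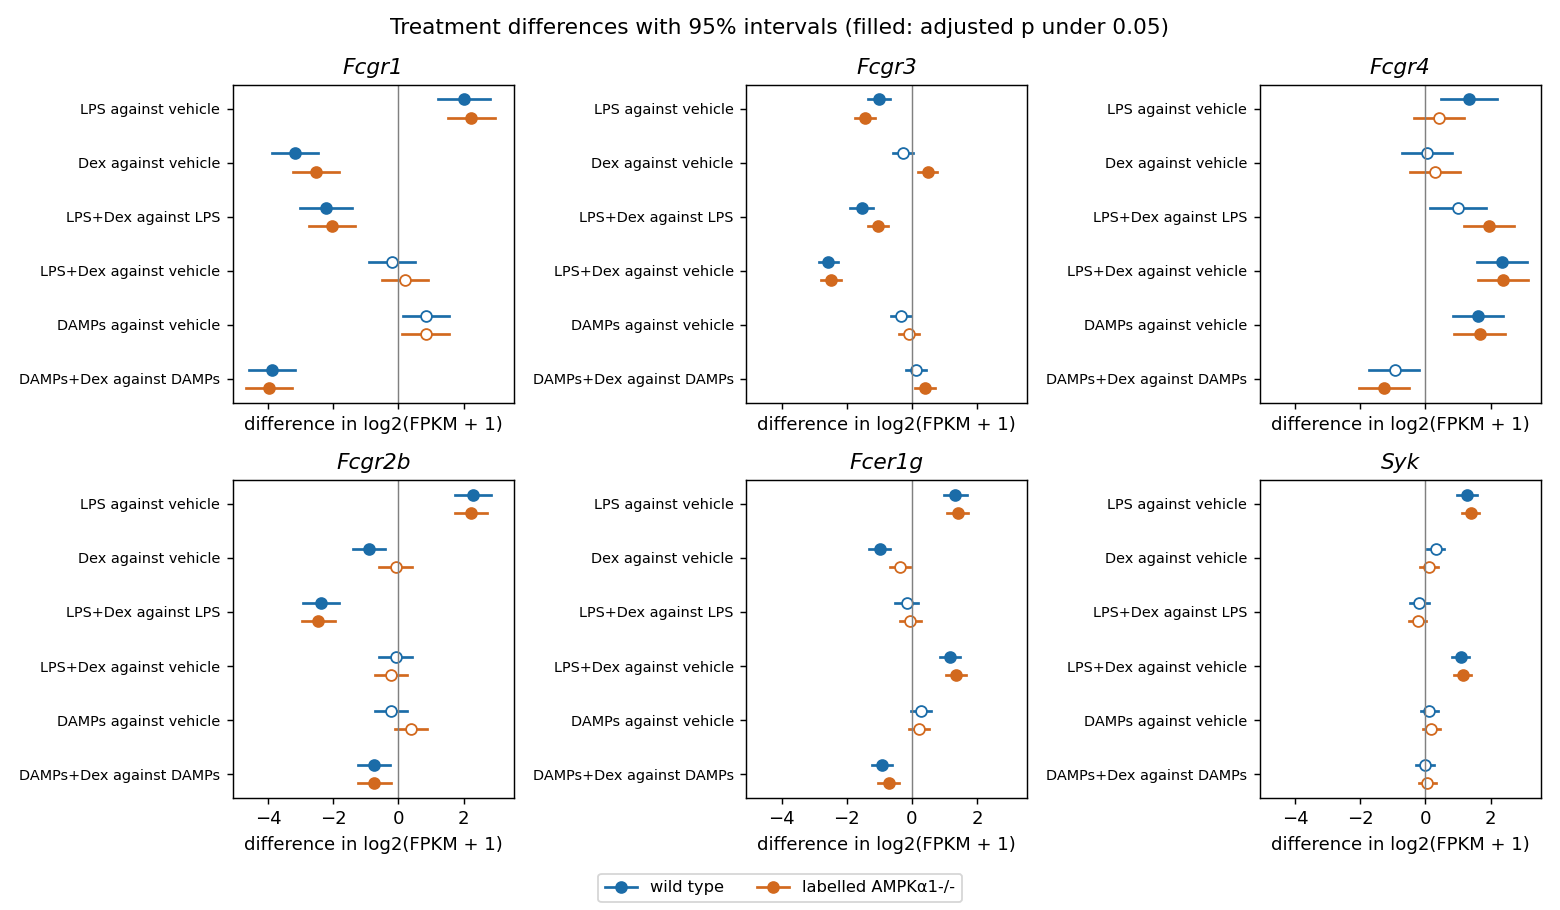
Differences in log2(FPKM + 1) with 95% intervals for 6 comparisons and both genotypes, 1 panel per gene, with filled points at an adjusted p under 0.05. Fcgr1 fell with Dex in all 3 settings, Fcgr4 is the receptor gene whose LPS + Dex points lie above LPS, and Fcer1g and Syk intervals for LPS + Dex against LPS include 0 in both genotypes.

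Fcgr1 encodes the high-affinity receptor, which binds monomeric IgG. In wild type it stood at 72.7, 103 and 66.2 FPKM in vehicle, at 301 and 345 in LPS, and at 10.8, 7.00 and 6.47 in Dex. Under LPS + Dex it stood at 61.3, 99.6 and 52.0 FPKM. Both LPS libraries lay above every other wild-type library, the libraries with Dex alone lay below all of vehicle, LPS and LPS + Dex, and LPS + Dex overlapped vehicle only through replicate 2. LPS raised Fcgr1 by 2.01 in log2(FPKM + 1) (standard error 0.39, 95% interval 1.22 to 2.81, adjusted p = 6.9e-05), a 4.01-fold ratio of group means. Dex alone lowered it by a log2 difference of -3.17 (standard error 0.35, adjusted p = 6.0e-08), to 0.10 of the vehicle mean, and with LPS by -2.22 (standard error 0.39, adjusted p = 4.1e-05), to 0.220 of the LPS mean. The LPS + Dex and vehicle means of 71.0 ± 25.2 and 80.6 ± 19.5 FPKM (SD, n = 3) did not differ past the test (log2 difference -0.21, 95% interval -0.92 to 0.50), nor did they without LPS + Dex replicate 2 (-0.48, adjusted p = 0.3). Whether the Dex difference depended on LPS did not pass either (0.95, adjusted p = 0.16).

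The libraries labelled AMPKα1-/- held 70.3, 81.1 and 61.2 FPKM of Fcgr1 in vehicle, 347, 344 and 315 in LPS, 10.8, 19.5 and 6.70 in Dex, and 98.2, 102 and 53.2 in LPS + Dex. The LPS libraries lay above every other library with this label, those with Dex alone lay below vehicle and LPS + Dex, and LPS + Dex overlapped vehicle, with the higher mean here (84.5 against 70.8 FPKM). LPS raised Fcgr1 there by 2.24 (adjusted p = 2.7e-06), and Dex lowered it by -2.54 alone (adjusted p = 2.2e-06) and by -2.03 with LPS (adjusted p = 2.5e-05).

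DAMPs alone gave 101, 108 and 264 FPKM of Fcgr1 in wild type and 97.8, 137 and 148 in the libraries labelled AMPKα1-/-, with 11.2, 8.85 and 6.45 and 7.67, 9.98 and 4.39 FPKM in DAMPs + Dex. The DAMPs libraries overlapped vehicle in wild type and lay above it in the labelled libraries, and neither difference passed the test (0.84, adjusted p = 0.33, and 0.83, adjusted p = 0.25). Without wild-type DAMPs replicate 3 the wild-type difference was 0.40. Dex added to DAMPs lowered Fcgr1 by -3.89 in wild type (adjusted p = 1.3e-09) and by -3.98 in the labelled libraries (adjusted p = 8.3e-10), the largest treatment differences of any of the 6 genes. Without that replicate the wild-type value was -3.45 (adjusted p = 2.3e-08).

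Fcgr3 encodes the low-affinity activating receptor that pairs with the Fcer1g chain and binds IgG in complexes. It was the one receptor gene that fell with LPS, and it fell further when Dex was added. Wild-type libraries held 525, 528 and 476 FPKM in vehicle, 229 and 274 in LPS, and 89.7, 80.0 and 85.6 in LPS + Dex. The libraries labelled AMPKα1-/- held 527, 468 and 462 FPKM in vehicle, 187, 242 and 123 in LPS, and 92.8, 86.3 and 80.1 in LPS + Dex. These 3 groups did not overlap in either genotype. LPS changed Fcgr3 by -1.02 in wild type (standard error 0.16, adjusted p = 6.3e-06), to 0.493 of the vehicle mean, and by -1.44 in the labelled libraries (adjusted p = 1.9e-09). Against LPS, LPS + Dex lay lower by -1.55 (adjusted p = 1.7e-08) and -1.03 (adjusted p = 1.8e-06), so that the LPS + Dex mean was 0.167 of vehicle in wild type and 0.178 in the labelled libraries.

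Without LPS, Fcgr3 differed less with Dex. Wild-type Dex libraries held 461, 358 and 440 FPKM, all below the 3 vehicle libraries, and the difference did not pass the test (-0.29, 95% interval -0.59 to 0.02, adjusted p = 0.14). It was -0.18 without Dex replicate 2 (adjusted p = 0.47) and -0.04 with quantile normalization (adjusted p = 0.86). Dex libraries labelled AMPKα1-/- held 657, 687 and 685 FPKM, all above vehicle, and Fcgr3 rose there by 0.48 (standard error 0.15, adjusted p = 0.015). That call was lost without vehicle replicate 2 (0.45, adjusted p = 0.055) or without vehicle replicate 3 (0.44, adjusted p = 0.057) of the labelled libraries. The Dex difference was lower with LPS than without it in both genotypes (difference of the differences -1.26, standard error 0.22, adjusted p = 7.5e-05 in wild type, and -1.51, adjusted p = 2.3e-06 in the labelled libraries).

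DAMPs gave 436, 379 and 393 FPKM of Fcgr3 in wild type and 518, 408 and 443 in the libraries labelled AMPKα1-/-, and DAMPs + Dex gave 458, 442 and 422 and 561, 587 and 646 FPKM. DAMPs did not differ from vehicle past the test (-0.34 and -0.10). DAMPs + Dex lay above DAMPs in the labelled libraries (0.39, adjusted p = 0.049). That call was lost with a pseudocount of 0.1 (adjusted p = 0.051) and in 5 of the other 8 alternatives that kept every library. It was also lost without the labelled DAMPs replicate 2 or 3, or DAMPs + Dex replicate 1, 2 or 3 (adjusted p = 0.063 to 0.19). In wild type the difference did not pass the test (0.13, adjusted p = 0.59).

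Fcgr4 encodes an activating receptor that binds IgG2a and IgG2b with intermediate affinity. It was the least abundant receptor gene in vehicle and LPS, and its group means peaked in LPS + Dex in both genotypes. Vehicle libraries held 7.66, 9.95 and 8.61 FPKM in wild type, LPS libraries 16.3 and 33.4, and LPS + Dex libraries 37.6, 75.2 and 39.4. Every LPS + Dex library lay above both LPS libraries, which lay above the 3 vehicle libraries. Fcgr4 rose with LPS by 1.33 (standard error 0.42, adjusted p = 0.0082), but without LPS replicate 3 the difference was 0.84 (adjusted p = 0.19). From LPS to LPS + Dex the difference of 1.01 (95% interval 0.15 to 1.87) did not pass the test (adjusted p = 0.064), and against vehicle LPS + Dex was higher by 2.34 (standard error 0.37, adjusted p = 6.2e-06), a 5.80-fold ratio of means. Without LPS + Dex replicate 2 these values were 0.69 (adjusted p = 0.27) and 2.03 (adjusted p = 1.4e-04), and the ratio of means to vehicle was 4.40-fold. The call for LPS + Dex against LPS was made without LPS replicate 3 (1.5, adjusted p = 0.032), without LPS + Dex replicate 1 (1.18, adjusted p = 0.045) and with the replicate number as a block (1.06, adjusted p = 0.034).

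In the libraries labelled AMPKα1-/-, Fcgr4 stood at 12.4, 13.0 and 6.05 FPKM in vehicle, at 20.1, 16.0 and 7.69 in LPS, and at 63.0, 59.1 and 46.9 in LPS + Dex. Vehicle and LPS overlapped, and the LPS + Dex libraries lay above every other library with this label. LPS alone gave a difference of 0.42 (95% interval -0.35 to 1.18, adjusted p = 0.34), and Dex added to LPS raised Fcgr4 by 1.96 (standard error 0.37, adjusted p = 1.1e-04), a 3.85-fold ratio of means. Dex alone left Fcgr4 with no difference past the test in wild type (12.3, 6.83 and 8.43 FPKM, log2 difference 0.04) or in the labelled libraries (11.3, 16.0 and 10.5 FPKM, log2 difference 0.29). The Dex difference was higher with LPS than without it in the labelled libraries (1.67, standard error 0.53, adjusted p = 0.018). That call was lost without vehicle replicate 2 (1.5, adjusted p = 0.051) or without LPS replicate 3 (1.30, adjusted p = 0.075) of that label, and the wild-type value of 0.97 did not pass (adjusted p = 0.19).

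DAMPs gave 18.9, 19.1 and 62.7 FPKM of Fcgr4 in wild type and 34.3, 37.2 and 29.7 FPKM in the libraries labelled AMPKα1-/-, all above the vehicle libraries of the same genotype. Fcgr4 was the one gene of the 6 whose difference between DAMPs and vehicle passed the test, at 1.60 in wild type (adjusted p = 0.02) and 1.66 in the labelled libraries (adjusted p = 0.0071). Whether it differed from Fcgr1 in this (0.84 and 0.83) was not tested. Without wild-type DAMPs replicate 3 the wild-type difference was 1.05 (adjusted p = 0.33), and the count of all genes called for DAMPs in wild type went from 228 to 27. The wild-type call was also lost without vehicle replicate 1 (adjusted p = 0.084) or 3 (adjusted p = 0.08), without a filter on low values (adjusted p = 0.051) and with only the groups compared (adjusted p = 0.36). In the labelled libraries the call was lost without vehicle replicate 3 (1.34, adjusted p = 0.085). DAMPs + Dex held 15.3, 15.6 and 12 FPKM in wild type, below the 3 DAMPs libraries (-0.95, adjusted p = 0.064). This value was -0.40 without DAMPs replicate 3 (adjusted p = 0.49), and it passed without DAMPs replicate 1 (-1.24, adjusted p = 0.029), without DAMPs replicate 2 (-1.23, adjusted p = 0.032) and with the replicate number as a block (-0.95, adjusted p = 0.041). In the labelled libraries DAMPs + Dex held 10.8, 18.8 and 11.5 FPKM, and Fcgr4 fell by 1.28 against DAMPs (adjusted p = 0.012), a call lost without DAMPs + Dex replicate 1 (-1.14, adjusted p = 0.057).

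Fcgr4 is known from neutrophils as well as macrophages, so neutrophil markers were read beside it. Their summed FPKM in wild type was 55.2 to 108 in vehicle, 232 to 289 in LPS and 544 to 1224 in LPS + Dex. Csf3r led the sum in vehicle (53.4 to 76.0 FPKM), Csf3r (106 to 127 FPKM) and Camp (113 to 133 FPKM) made up most of it in LPS, and S100a8 led it in LPS + Dex. S100a8 rose from 10.6 to 27.0 FPKM in LPS to 478 to 1147 in LPS + Dex in wild type (log2 difference 5.28, adjusted p = 7.7e-09) and stood at 301 to 581 FPKM in the labelled LPS + Dex libraries. Of the 11 neutrophil markers 6 were tested, and from LPS to LPS + Dex in wild type 1 rose, 2 fell and 3 did not pass. These were 16.7% higher and 33.3% lower, beside 16.6% and 17.5% of all genes. Csf3r fell by 1.90 and Camp by 1.62, the latter call lost with a pseudocount of 0.1 (adjusted p = 0.088). The markers Ly6g, Mpo, Elane, Cxcr2 and Retnlg stayed under 1 FPKM in every library. The part of neutrophils in the Fcgr4 values was not tested.

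Fcgr2b, the inhibitory receptor gene, moved opposite to Fcgr3 with LPS and together with Fcgr1. Wild-type libraries held 110, 102 and 115 FPKM in vehicle, 550 and 527 in LPS, and 131, 69.1 and 117 in LPS + Dex. Libraries labelled AMPKα1-/- held 102, 80.9 and 81.7 FPKM in vehicle, 316, 475 and 475 in LPS, and 69.0, 80.7 and 74.3 in LPS + Dex. In both genotypes the LPS libraries lay above all others, and LPS + Dex overlapped vehicle in wild type, where replicate 2 lay below it and the others above it, and lay just below it in the labelled libraries. LPS raised Fcgr2b by 2.29 in wild type (standard error 0.27, 95% interval 1.74 to 2.85, adjusted p = 3.7e-08), a 4.94-fold ratio of means, and by 2.23 in the labelled libraries (adjusted p = 6.0e-09). LPS + Dex against LPS gave -2.39 (adjusted p = 4.7e-08) and -2.46 (adjusted p = 2.6e-09), which left 0.196 and 0.177 of the LPS means. Neither genotype showed a difference between LPS + Dex and vehicle past the test (-0.09, 95% interval -0.59 to 0.40 in wild type, and -0.23, adjusted p = 0.42). Without LPS + Dex replicate 2 the wild-type values were -2.11 against LPS (adjusted p = 6.9e-07) and 0.18 against vehicle (adjusted p = 0.56).

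Dex alone gave 74.9, 35.1 and 74.5 FPKM of Fcgr2b in wild type and 87.0, 67.2 and 94.9 in the libraries labelled AMPKα1-/-. The wild-type libraries lay below vehicle and the labelled ones overlapped it. The wild-type fall by 0.90 (standard error 0.24, adjusted p = 0.0059) was -0.54 without Dex replicate 2 (adjusted p = 0.093), and the value in the labelled libraries was -0.09 (95% interval -0.59 to 0.40). The Dex difference was more negative with LPS than without it in both genotypes, by -1.49 in wild type (standard error 0.36, adjusted p = 0.0024, and -1.85 without Dex replicate 2) and -2.37 in the labelled libraries (adjusted p = 4.6e-06).

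DAMPs gave 112, 77.2 and 93.6 FPKM of Fcgr2b in wild type and 117, 96.0 and 135 FPKM in the labelled libraries, overlapping vehicle in both (-0.22 and 0.38, neither past the test). DAMPs + Dex gave 47.6, 48.1 and 73.8 FPKM and 77.8, 63.0 and 65.7 FPKM, below the DAMPs libraries in both genotypes. Fcgr2b fell by 0.74 in each, with adjusted p = 0.024 in wild type and 0.025 in the labelled libraries. These calls were lost without any filter on low values (adjusted p = 0.057 and 0.059) and without each of 4 libraries in either genotype (adjusted p = 0.058 to 0.11 and 0.062 to 0.099). B cells also express Fcgr2b, and the summed FPKM of 8 B cell markers in wild type was 68.3 to 74.6 in vehicle, 11.6 to 16.3 in Dex, 3.55 to 4.49 in LPS, 4.22 to 5.26 in LPS + Dex, 34 to 43.5 in DAMPs and 10.3 to 12.6 in DAMPs + Dex, nearly all of it Ighm in vehicle (67.4 to 72.8 FPKM). In the labelled libraries it was 29.4 to 45.1 in DAMPs and 11.4 to 17.1 in DAMPs + Dex, so that it was lower with Dex added to DAMPs in both genotypes, as Fcgr2b was. With Dex alone there it went from 61.8 to 75.6 in vehicle to 18.7 to 27.6, while the Fcgr2b difference was -0.09. The 1 B cell marker tested fell with LPS (-4.73) and with Dex (-2.44) in wild type and did not differ past the test from LPS to LPS + Dex (0.12), and its part in the Fcgr2b values was not tested.

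Fcer1g, the chain shared by the activating receptors, was the most abundant of the 6 genes by group mean in all 12 groups. Wild-type libraries held 1027, 1290 and 980 FPKM in vehicle, 2621 and 2856 in LPS, and 1990, 2498 and 2952 in LPS + Dex. Those labelled AMPKα1-/- held 1057, 973 and 969 FPKM in vehicle, 2791, 2520 and 2595 in LPS, and 2496, 2216 and 2967 in LPS + Dex. Every library with LPS, with or without Dex, lay above every library without it, and LPS overlapped LPS + Dex. LPS raised Fcer1g by 1.33 in wild type (standard error 0.17, adjusted p = 2.1e-07) and by 1.40 in the labelled libraries (adjusted p = 8.2e-09). Dex added to LPS gave -0.16 (95% interval -0.51 to 0.19) and -0.05 (95% interval -0.37 to 0.27), neither past the test.

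Without LPS, Dex lowered Fcer1g. Wild-type libraries held 571, 483 and 593 FPKM in Dex, below all 3 vehicle libraries, a difference of -0.99 (standard error 0.15, adjusted p = 1.5e-05) that left 0.50 of the vehicle mean and was -0.90 without Dex replicate 2 (adjusted p = 2.9e-04). The libraries labelled AMPKα1-/- held 749, 850 and 727 FPKM in Dex, also below vehicle, and the difference of -0.37 (95% interval -0.68 to -0.05) did not pass the test (adjusted p = 0.077). That value passed with quantile normalization (-0.47, adjusted p = 2.4e-04) and with only the groups compared (adjusted p = 0.043). The Dex difference depended on LPS in wild type (0.83, standard error 0.23, adjusted p = 0.007) and not past the test in the labelled libraries (0.32, adjusted p = 0.31), where it passed with quantile normalization (0.64, adjusted p = 3.8e-04).

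Fcer1g in DAMPs stood at 1087, 1296 and 1623 FPKM in wild type and at 1359, 1078 and 1056 FPKM in the labelled libraries, overlapping vehicle (0.27 and 0.21, neither past the test). DAMPs + Dex held 695, 781 and 626 FPKM and 613, 716 and 780 FPKM, below every DAMPs library. The difference was -0.92 in wild type (adjusted p = 4.2e-05, and -0.77 without DAMPs replicate 3, adjusted p = 9.3e-04) and -0.72 in the labelled libraries (adjusted p = 6.8e-04).

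Syk, the kinase recruited by the phosphorylated chain, rose with LPS in both genotypes, and Dex alone or with LPS gave smaller differences that did not pass the test on log2(FPKM + 1). In wild type it stood at 114, 100 and 110 FPKM in vehicle, at 292 and 237 in LPS, and at 283, 211 and 203 in LPS + Dex. In the libraries labelled AMPKα1-/- it stood at 107, 111 and 113 FPKM in vehicle, at 270, 289 and 312 in LPS, and at 245, 284 and 210 in LPS + Dex. No library without LPS overlapped one with LPS. LPS raised Syk by 1.28 (standard error 0.14, adjusted p = 1.7e-08) and 1.39 (adjusted p = 3.1e-10), and LPS + Dex differed from LPS by -0.19 (adjusted p = 0.33) and -0.24 (adjusted p = 0.15). The latter passed with libraries centred on one median (-0.23, adjusted p = 0.046). Against vehicle LPS + Dex remained higher, by 1.08 (adjusted p = 5.1e-08) and 1.14 (adjusted p = 1.7e-08).

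Dex alone gave 139, 129 and 134 FPKM of Syk in wild type, above the 3 vehicle libraries, with a difference of 0.31 that did not pass the test (adjusted p = 0.069) except with only the groups compared (adjusted p = 0.032). The labelled Dex libraries held 118, 106 and 133 FPKM and overlapped vehicle (0.10, adjusted p = 0.59). The wild-type dependence of the Dex difference on LPS was -0.50 (adjusted p = 0.047), a call lost in 6 of the 9 alternatives that kept every library and without each of 8 libraries (adjusted p = 0.059 to 0.27). The values nearest to 0 were -0.34 with libraries centred on one median (adjusted p = 0.058) and -0.35 without LPS replicate 2 (adjusted p = 0.27). In the labelled libraries it was -0.35 (adjusted p = 0.17), which passed with libraries centred on one median (-0.42, adjusted p = 0.015). DAMPs gave 130, 115 and 105 FPKM in wild type and 111, 131 and 132 FPKM in the labelled libraries, and DAMPs + Dex 120, 97.1 and 132 and 137, 123 and 128 FPKM. DAMPs + Dex overlapped DAMPs in both genotypes, and no Syk difference with DAMPs passed the test.

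The balance of activating and inhibitory receptor genes was read within a library, as log2(FPKM + 1) of an activating receptor gene minus that of Fcgr2b. This is called the log2 ratio below. The added 1 draws it toward 0 where a gene has few FPKM, as for Fcgr4 and for Fcgr1 with Dex. It is therefore not fully free of the library's scale. The log2 ratio of Fcgr3 to Fcgr2b in wild type was 2.24, 2.36 and 2.04 in vehicle, -1.26 and -0.94 in LPS, and -0.54, 0.21 and -0.45 in LPS + Dex. Fcgr3 thus exceeded Fcgr2b in every vehicle library and fell below it in both LPS libraries, while LPS + Dex lay between them, below equality in replicates 1 and 3 and above it in replicate 2. In the libraries labelled AMPKα1-/- the values were 2.36, 2.52 and 2.49 in vehicle, -0.75, -0.97 and -1.94 in LPS, and 0.42, 0.10 and 0.11 in LPS + Dex, with no overlap between treatments. The group means in wild type were 2.21 ± 0.16 (SD, n = 3) in vehicle and -1.10 ± 0.23 (SD, n = 2) in LPS, a difference of -3.32. In Dex the ratio was 2.61, 3.32 and 2.55 in wild type, all above vehicle, and 2.90, 3.33 and 2.84 in the labelled libraries, again all above vehicle. DAMPs libraries held ratios of 1.95, 2.28 and 2.06 and of 2.14, 2.07 and 1.71, and DAMPs + Dex of 3.24, 3.18 and 2.50 and of 2.83, 3.20 and 3.28, so that DAMPs + Dex lay above DAMPs in both genotypes.

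**Figure D3:**
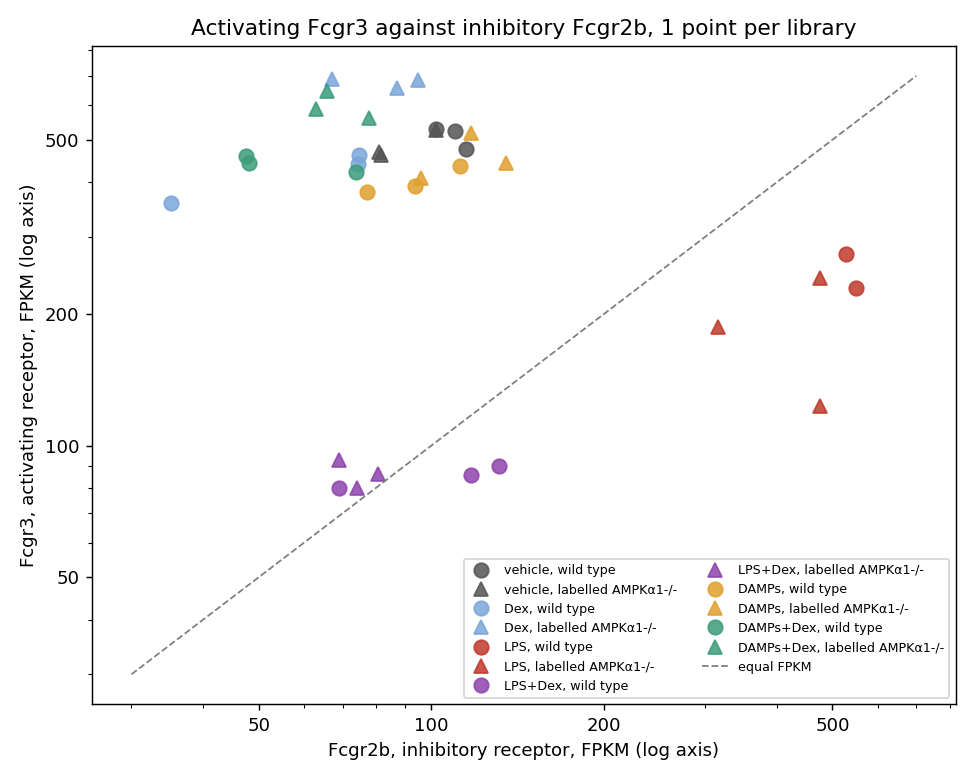
Fcgr3 FPKM against Fcgr2b FPKM on log axes, 1 point per library for 35 libraries, with a dashed line at equal FPKM. The LPS libraries of both genotypes lie below the line, those of LPS + Dex lie near it, with Fcgr3 at 80.0 to 92.8 FPKM, and all libraries without LPS lie above it.

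The ratio depended on which activating receptor was taken. Fcgr1 and Fcgr2b rose to a similar extent with LPS, and their log2 ratio in wild type was -0.60, 0.01 and -0.79 in vehicle and -0.87 and -0.61 in LPS, which overlapped. Dex alone gave -3.17 for Fcgr1 and -0.90 for Fcgr2b, and the ratio was -2.68, -2.17 and -3.34 in Dex, below every vehicle library. With LPS, Dex gave -2.22 and -2.39, and the ratio was -1.08, 0.52 and -1.16 in LPS + Dex, where replicates 1 and 3 lay below every vehicle and LPS library and replicate 2 above them. In the libraries labelled AMPKα1-/- it was -0.53, 0.00 and -0.41 in vehicle, 0.13, -0.46 and -0.59 in LPS, and 0.50, 0.34 and -0.48 in LPS + Dex, where replicates 1 and 2 lay above every vehicle and LPS library. The log2 ratio of Fcgr4 to Fcgr2b in wild type was -3.68, -3.23 and -3.59 in vehicle, -4.99 and -3.94 in LPS, and -1.77, 0.12 and -1.55 in LPS + Dex. In the labelled libraries it was -2.95, -2.55 and -3.55 in vehicle, -3.91, -4.80 and -5.78 in LPS, and -0.13, -0.44 and -0.65 in LPS + Dex. In both genotypes the LPS libraries lay below vehicle and the LPS + Dex libraries above it.

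Among the summed FPKM of the 4 receptor genes, Fcgr2b made up 15.4%, 13.7% and 17.3% in the wild-type vehicle libraries, 50.2% and 44.7% in LPS, and 41.0%, 21.3% and 39.8% in LPS + Dex. The LPS share lay above all others, and the LPS + Dex share lay above vehicle, lowest in replicate 2. Fcgr3 made up 73.4%, 71.1% and 71.5% in vehicle, 20.9% and 23.2% in LPS, and 28.1%, 24.7% and 29.1% in LPS + Dex. Fcgr4 made up 11.8%, 23.2% and 13.4% of the sum in wild-type LPS + Dex and 19.5%, 18.0% and 18.4% in the labelled LPS + Dex libraries, and at most 7.71% in every other library. The sum itself was 716, 743 and 665 FPKM in vehicle, 1096 and 1180 in LPS and 320, 324 and 294 in LPS + Dex, so the larger share of Fcgr4 was a share of a smaller sum. With Dex alone the sum was 499 ± 80.5 FPKM in wild type and 784 ± 16.0 FPKM in the labelled libraries (SD, n = 3), of which Fcgr3 made up 84.5% ± 3.02 and 86.2% ± 0.659.

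**Figure D4:**
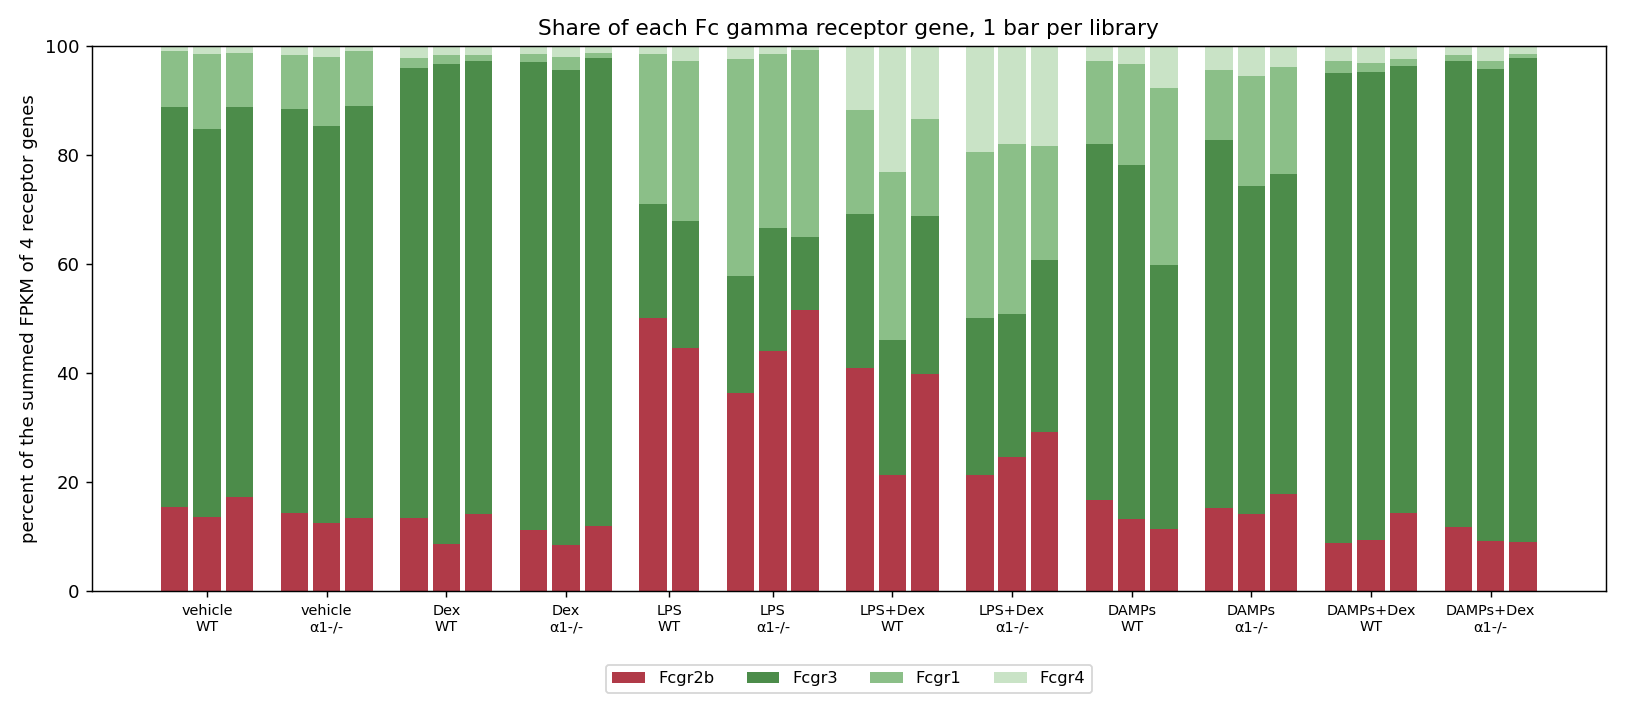
Percent of the summed FPKM of Fcgr1, Fcgr2b, Fcgr3 and Fcgr4 taken by each gene, 1 stacked bar per library, grouped by treatment and genotype. Fcgr3 takes over 50% of the sum in every library without LPS except wild-type DAMPs replicate 3 (48.3%), Fcgr2b takes 36.3% to 51.6% of it in the 5 LPS libraries, and Fcgr4 is visible mainly in LPS + Dex.

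The common chain was set against the receptors that need it. Fcer1g FPKM divided by the summed FPKM of Fcgr1, Fcgr3 and Fcgr4 was 1.70, 2.01 and 1.78 in wild-type vehicle, 4.80 and 4.38 in LPS, and 10.5, 9.81 and 16.7 in LPS + Dex. These groups did not overlap, and the same held in the libraries labelled AMPKα1-/-, at 1.73, 1.73 and 1.83 in vehicle, 5.04, 4.18 and 5.82 in LPS, and 9.83, 8.95 and 16.5 in LPS + Dex. With Dex alone the ratio was 1.26 ± 0.0704 in wild type and 1.10 ± 0.0705 in the labelled libraries (SD, n = 3), below vehicle in both.

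Between genotypes, 2 of the 6 genes differed under Dex and none under the other treatments. For Dex, 26.5% of all genes passed the test of the labelled libraries against wild type, and Fcgr3 (657, 687 and 685 against 461, 358 and 440 FPKM) and Fcer1g (749, 850 and 727 against 571, 483 and 593 FPKM) were among them. The libraries did not overlap for either gene. Fcgr3 was higher by 0.69 in the labelled libraries (standard error 0.15, 95% interval 0.39 to 1.00, adjusted p = 0.0039) and Fcer1g by 0.50 (standard error 0.15, adjusted p = 0.023). With quantile normalization these were 0.42 (adjusted p = 0.033) and 0.19 (adjusted p = 0.12), so the Fcer1g call was lost. Without wild-type Dex replicate 2 the count of all genes went from 3008 to 305, Fcgr3 was higher by 0.58 (adjusted p = 0.048) and Fcer1g by 0.41 (adjusted p = 0.13). Without the labelled Dex replicate 2 the count was 308, and Fcer1g was higher by 0.43 (adjusted p = 0.13). Several cell type markers also lay apart between the genotypes under Dex, with no overlap. Fibroblast markers summed to 11.9 to 24.7 FPKM in wild type and 2.99 to 4.52 in the labelled libraries. In the same order, B cell markers summed to 11.6 to 16.3 and 18.7 to 27.6 FPKM, and neutrophil markers to 30.6 to 35.3 and 49.1 to 74.3 FPKM. The macrophage gene Lyz2 stood at 16768 to 20418 and 27101 to 33976 FPKM. The part of these markers in the Fcgr3 and Fcer1g differences was not tested. Fcgr2b differed by 0.49 under Dex (adjusted p = 0.12), which passed only when libraries were centred on one median (0.65, adjusted p = 0.042) and was 0.14 without wild-type Dex replicate 2.

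Under vehicle 0 of 6 genes passed (0.432% of all genes), as under LPS (0.766%), LPS + Dex (0.669%), DAMPs (0.731%) and DAMPs + Dex (1.06%). At an unadjusted p under 0.05 there was 1 member under LPS and 1 under DAMPs + Dex, Fcgr3 in each case, and none under vehicle, LPS + Dex or DAMPs, and voom on recovered fragments also called 0 members in these 5 treatments. Fcgr3 differed by -0.49 under LPS (95% interval -0.83 to -0.16, adjusted p = 0.2), and passed without the labelled LPS replicate 2 (-0.72, adjusted p = 0.013). Under DAMPs + Dex it differed by 0.44 (95% interval 0.14 to 0.74, adjusted p = 0.21), where the libraries did not overlap. Of the 5 tests of whether a treatment difference depended on genotype, each called 0 members with limma and with voom, and 0% of all genes passed with limma. An unadjusted p under 0.05 was reached by 3 members for Dex against vehicle and by 1 for LPS + Dex against LPS. For Dex these were Fcgr3 (0.76, adjusted p = 0.19), Fcer1g (0.63, adjusted p = 0.19) and Fcgr2b (0.80, adjusted p = 0.2), so a Dex difference particular to either label was not shown for these genes.

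The genes whose log2(FPKM + 1) followed each member most closely over the 35 libraries were listed by Pearson's r, as a description. These libraries share their treatments, so a high r mainly records the same order of treatments. Fcgr1 was followed by Cd72 (0.97), Gna15 (0.96) and Cd52 (0.95), and Fcgr2b by Rab32 (0.95), Scimp (0.94) and Cxcl10 (0.94). Fcgr3 was followed by P2ry6, Tspan13 and Plekho1 (each 0.96), and Fcgr4, with the lowest values, by Chchd6, Vill and Tspan32 (each 0.82). Fcer1g was followed by Rac2 (0.98), Ppia (0.97) and Uqcc2 (0.97), and Syk by Cflar (0.97), Jak2 (0.97) and Cep83 (0.96). Among the members, r was 0.80 for Fcgr1 with Fcer1g, 0.77 for Fcer1g with Syk, 0.72 for Fcgr1 with Fcgr2b, 0.03 for Fcgr2b with Fcgr4, -0.80 for Fcgr3 with Fcer1g and -0.82 for Fcgr3 with Syk.

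The other genes of the pathway were read from fixed lists in wild type. Of all genes tested, LPS raised 19.9% and lowered 35.8%, Dex raised 15.9% and lowered 14.9%, and Dex with LPS raised 16.6% and lowered 17.5%. Without Dex replicate 2, Dex raised 10.3% and lowered 11.2% of all genes. Without LPS + Dex replicate 2, Dex with LPS raised 13.4% and lowered 15.1%. The counts of each list are to be read against the shares of the same setting. Of 5 other Fc and immunoglobulin receptors tested, LPS raised 1 and lowered 3, with a median log2 difference of -3.06 beside -0.19 for all genes. Fcgrt, which encodes the neonatal Fc receptor that salvages IgG, fell by 3.06 with LPS and rose by 1.26 with Dex. Trim21, a cytosolic antibody receptor, rose by 1.94 with LPS and fell by 1.81 from LPS to LPS + Dex, a pattern of the same direction as in Fcgr1 and Fcgr2b. Dex alone raised 1 of these 5 genes and lowered 3. Dex with LPS raised 2 and lowered 2 (median 0.52), and without LPS + Dex replicate 2 raised 1 and lowered 2 (median 0.10).

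Of 17 ITAM adaptors and partner receptors, which share Syk with the Fc receptors, LPS raised 4 and lowered 13 (23.5% and 76.5%, median -1.31), Dex raised 0 and lowered 10 (0% and 58.8%, or 8 lowered without Dex replicate 2), and Dex with LPS raised 3 and lowered 4 (17.6% and 23.5%, median -0.02), or 4 and 4 without LPS + Dex replicate 2 (median -0.22). Trem2, a lipid-sensing receptor that signals through another ITAM adaptor, fell by 6.28 with LPS, and Clec4e, which signals through the Fcer1g chain itself, rose by 5.38. Clec7a, the beta-glucan receptor, fell by 2.54 with Dex and by 2.01 from LPS to LPS + Dex. Fcer1g and Syk themselves rose with LPS, while 13 of these 17 fell.

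Of 30 kinases and adaptors after the ITAM, LPS raised 10 and lowered 12 (33.3% and 40%, median -0.25), and Dex with LPS raised 8 and lowered 8 (26.7% each, median 0.08), or 6 and 7 without LPS + Dex replicate 2. The share lowered with LPS was near that of all genes. Src, a kinase that can phosphorylate the motif, rose by 2.75 with LPS and fell by 2.92 from LPS to LPS + Dex, whereas Fgr, of the same family, rose by 1.21 and by a further 1.81. Lcp2, an adaptor for phospholipase C signalling, rose by 2.22 with LPS, and Malt1, a paracaspase on the route to NF-κB, rose by 4.39 and fell by 2.79 with Dex added. Dex alone raised 6 of these genes and lowered 12 (median -0.20), with Lat2 at -1.98.

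Of 17 inhibitory phosphatases, adaptors and ligases, LPS raised 2 and lowered 6 (11.8% and 35.3%, the latter near the share of all genes, median -0.28) and Dex with LPS raised 6 and lowered 2 (35.3% and 11.8%, median 0.21), or 5 and 1 without LPS + Dex replicate 2 (median 0.13). Ptpn22, a phosphatase of Src-family kinases, fell by 1.87 with LPS and rose by 1.64 from LPS to LPS + Dex, and Cblb, a ubiquitin ligase, rose by 1.83 with Dex alone. Of 15 other ITIM receptors, LPS raised 6 and lowered 7 (40% and 46.7%, median 0.20), Dex raised 1 and lowered 8 (median -0.68) and Dex with LPS raised 4 and lowered 3 (median 0.08). Pilra and Siglece rose with LPS by 5.03 and 4.91, as Fcgr2b did. Pirb, in contrast to Fcgr2b, fell by 2.40 with LPS and rose by 2.85 from LPS to LPS + Dex, and Cd72 fell by 3.73 with Dex.

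Of 35 genes of actin and the phagocytic cup, LPS raised 7 and lowered 13 (20.0% and 37.1%, median -0.19) and Dex with LPS raised 6 and lowered 4 (17.1% and 11.4%, median -0.01), both medians close to those of all genes (-0.19 and -0.03). Without LPS + Dex replicate 2, Dex with LPS raised 4 of them and lowered 5 (median -0.08), so the balance of the counts turned. That library left out, 13.4% of all genes were higher and 15.1% lower. Dex alone raised 5 of these 35 genes and lowered 15 (14.3% and 42.9%), beside 15.9% and 14.9% of all genes. Their median was -0.29 beside 0.05 for all genes, and without Dex replicate 2 the counts were 3 and 14. Vasp, which promotes actin filament growth, rose by 2.15 with LPS, and Myo1e, a membrane-bound myosin of the phagocytic cup, fell by 2.32 with Dex. DAMPs changed few of the genes on these lists. Of the 17 ITAM genes 2 were higher and 0 lower, and of the 15 ITIM receptors 3 were higher, beside 1.22% of all genes higher and 0.793% lower. Without DAMPs replicate 3 these counts of higher genes were 0 and 1, beside 0.167% of all genes higher and 0.0705% lower. With only the groups compared they were 0 and 0 (0 of all genes). Of the 5 Fc and immunoglobulin receptors 0 passed with DAMPs (limma).

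**Figure D5:**
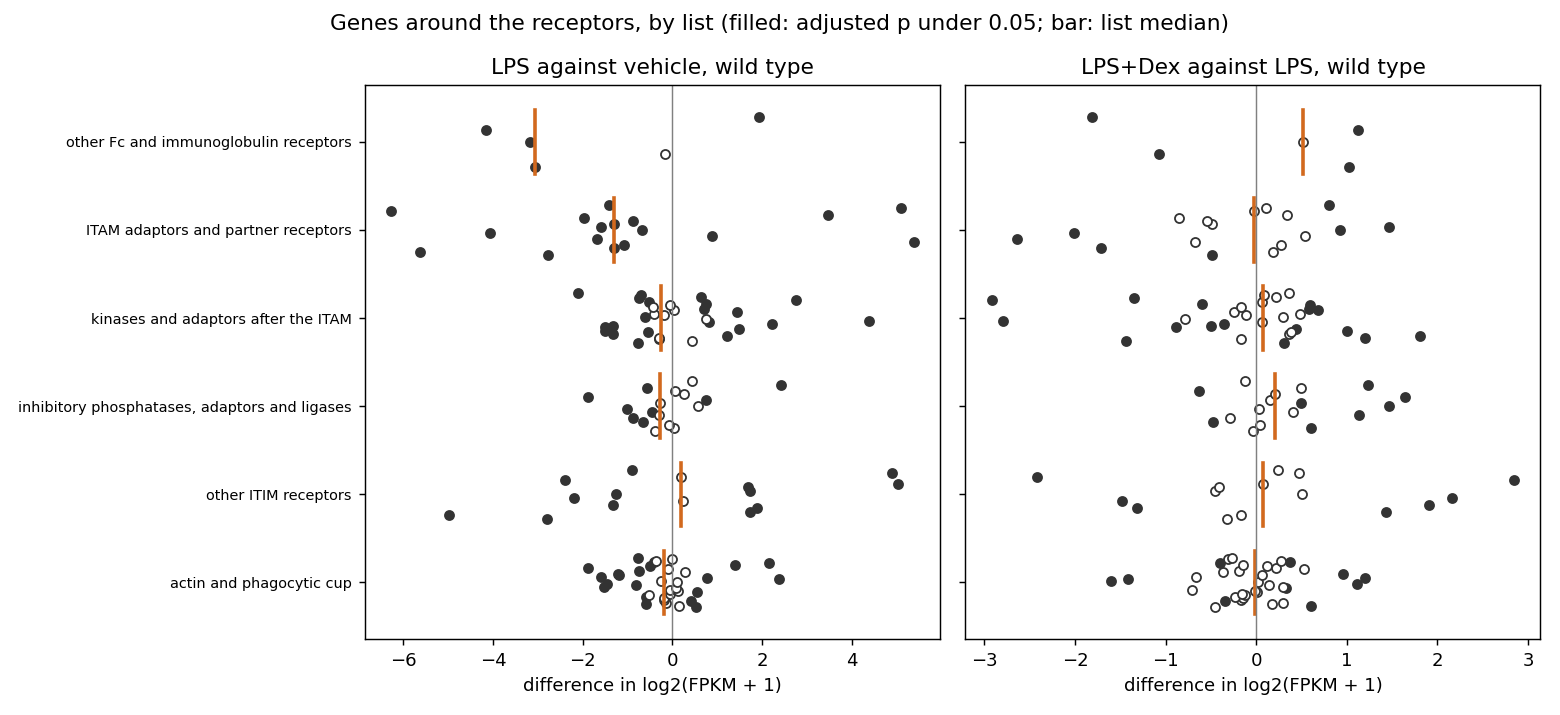
Differences in log2(FPKM + 1) of the genes of 6 pathway lists in wild type, for LPS against vehicle (left) and LPS + Dex against LPS (right), 1 point per gene, filled at an adjusted p under 0.05, with a bar at the list's median. Most ITAM partner receptors lie left of 0 with LPS, and the medians with Dex added to LPS lie between -0.02 and 0.52, or between -0.22 and 0.13 without LPS + Dex replicate 2.

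Of 11 transcription factors known at Fc receptor genes, LPS raised 2 and lowered 6 (18.2% and 54.5%, median -0.56) and Dex with LPS raised 1 and lowered 4 (median -0.09). Cebpa, a factor of myeloid differentiation, fell by 3.61 with LPS and rose by 1.72 with Dex added. Of 12 neighbours on chromosome 1 around the low-affinity receptors, LPS raised 3 and lowered 3 (25.0% each, median 0.08) and 6 did not pass. Of all genes, LPS raised 19.9% and lowered 35.8%. Dex with LPS raised 2 and lowered 1 of these neighbours (1 and 1 without LPS + Dex replicate 2). Dex alone raised 0 and lowered 4 (0% and 33.3%), or lowered 3 without Dex replicate 2.

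The depth behind these values differed between genes and was lowest for Fcgr1 and Fcgr4. Lowest to highest, the fragments behind a library's value were 5128 to 38987 for Fcer1g, 1662 to 16439 for Fcgr3, 1038 to 20057 for Fcgr2b, 5554 to 28696 for Syk, 119 to 13120 for Fcgr1 and 159 to 2132 for Fcgr4. The fewest fragments of Fcgr1 lay in a DAMPs + Dex library. Of the stretches of 50 bases in annotated Fcgr3 transcripts, 9.58% also occur in Fcgr2b, and none of those of 150 bases do, so short parts of reads could be placed at either gene. The antisense gene Gm38204 overlaps Fcgr2b and reached at most 1.22 FPKM, Mir6546 overlaps Fcgr3 (at most 2.85 FPKM) and Gm26110 overlaps Fcgr4 (at most 0.422 FPKM). Whether the counting used strand is not given in the sources used here, so reads of overlapping genes cannot be told apart. Saa3, an acute phase gene, took 16.0% to 24.0% of the FPKM sum of the LPS + Dex libraries, and its part in the levels of the other genes there was not tested.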

How the data were processed

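RNA of bone marrow-derived macrophages was sequenced in 35 libraries of 12 groups. The authors deposited FPKM values per gene identifier, that is, fragments per kilobase scaled to the fragments of the library. The submitters' processing notes name Bowtie2 2.2.3, TopHat2 2.0.12, HTSeq 0.6.1 and DESeq2, and the builds GRCm38 and mm10, with no role for each. Strand use in counting is not given in the sources used here. GENCODE release M21 (GRCm38) gave positions and, for 46488 of 47069 identifiers, a symbol, and RefSeq (GRCm38.p6) the upstream windows.

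Genes with a mean of at least 1 FPKM over the 35 libraries (11354) were fitted together in limma 3.58.1 (R 4.3.3) as a linear model of 12 groups on log2(FPKM + 1), which understates changes of low genes, with a 2-sided moderated test whose prior spread followed the mean, and p-values were adjusted by Benjamini-Hochberg over all of them, with a threshold of 0.05. All groups shared 1 estimate of the spread, so LPS in wild type, with 2 libraries, borrowed it from the others. Tables and figures used Python 3.11.15, numpy 2.4.6, pandas 2.3.3 and matplotlib 3.10.9. The fit was tested on simulated data.

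Fragments per library were estimated from the steps in FPKM of weakly expressed genes. With 1 length per gene, 100% of the 11354 genes gave whole fragments in every library within 0.02 fragments, and these genes held 99.6% to 99.8% of each library's total. Voom (limma) on these fragments was added as an alternative after seeing the data. Pearson's r of log2(FPKM + 1) between replicates of a group was 0.967 to 0.993, and 0 pairs of libraries were identical.

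Replicate numbers, whose meaning the labels do not give, were checked by correlating deviations from group means between same-numbered libraries. The main tests of both genotypes were unpaired, and the replicate number entered as a block only in an alternative setting. In the libraries labelled AMPKα1-/- every correlation was over 0.1 for vehicle with Dex, LPS and LPS + Dex. The same held there for LPS with LPS + Dex (0.37, 0.37 and 0.36). The block changed no call of a member in those comparisons. In wild type no pair of groups compared here had every correlation over 0.1 with 3 pairs (LPS with LPS + Dex had 2, at 0.11 and 0.43). Groups not compared directly did, such as LPS + Dex with DAMPs (0.76, 0.49 and 0.58). Values with the block are given beside the wild-type calls that it changed.

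The members and the gene lists were chosen with earlier results of these data known. Genes named besides the members are the control genes, Prkaa1 and Prkaa2, up to 3 genes with the largest called difference in each list for 4 wild-type comparisons, the most abundant gene of each list of other cell types, the 3 genes most correlated with each member, and genes that overlap a member, except 2 that are not reported here. Other settings tried were fitting only the groups compared, quantile normalization, centring on one median, a mean of at least 5 FPKM or no minimum, a pseudocount of 0.1, a test without moderation, a replicate block, voom, and leaving out each library.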

Additional observations from a re-analysis of the deposited data

Results flagged for a closer look

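Fcgr3 lay on opposite sides of vehicle with Dex in the libraries of the 2 genotypes. Every wild-type Dex library (461, 358 and 440 FPKM) lay below every wild-type vehicle library, and every Dex library labelled AMPKα1-/- (657, 687 and 685 FPKM) lay above every vehicle library of that label. The log2 difference was -0.29 in wild type, which did not pass the test (limma, adjusted p = 0.14), and 0.48 in the labelled libraries (adjusted p = 0.015), a call lost without vehicle replicate 2 (adjusted p = 0.055) or 3 (adjusted p = 0.057) of that label. The difference between them was 0.76 (95% interval 0.34 to 1.19). Its test as an interaction term in limma gave an unadjusted p of 0.0011 and an adjusted p of 0.19, so it did not pass over all genes, and the adjusted p was 0.085 to 0.48 over the alternatives. Without wild-type Dex replicate 2 the wild-type value was -0.18 (adjusted p = 0.47) and the interaction 0.65 (adjusted p = 0.45). In the same comparison 2441 of the 11354 genes had an unadjusted p under 0.05 and 0 passed the adjusted threshold, with 0 by voom as well. Prkaa1 was not lower past the test in the labelled libraries, so the genotype rests on the label.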

How the results depend on the processing

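For the 6 genes, 1324 of 1350 values over the alternatives that kept every library, and 1077 of 1116 with a library left out, kept their side of the threshold and, where called, their direction. No called value changed sign, 17 and 34 lost a call and 9 and 5 gained one. For the other named genes 938 of 978 and 554 of 593 values did so, and no called value changed sign. The LPS calls of Fcgr1, Fcgr2b, Fcgr3, Fcer1g and Syk held in every alternative run, and the log2 ratio of Fcgr3 to Fcgr2b, wild-type LPS minus vehicle, was -3.32 with -3.47 to -3.16 when a library was left out.

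The labels do not say what a replicate number marks. Same-numbered libraries of wild type correlated in their deviations at over 0.1 in 25 of 40 pairs and those labelled AMPKα1-/- in 29 of 45. With the replicate block, 5 genes passed for the genotype difference of LPS against vehicle, in place of 0, Fcgr4 gained 2 wild-type calls (1.06 for LPS + Dex against LPS and -0.95 for DAMPs + Dex against DAMPs), and no other call of a member changed.

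Counts of all genes called moved as follows, and the cause was not tested beyond the settings' own construction. With only the groups compared, which uses fewer samples, they were in wild type 1931 for LPS + Dex against LPS, 0 for DAMPs against vehicle and 1825 for DAMPs + Dex against DAMPs, and 274 for DAMPs in the labelled libraries. That setting gave genotype counts of 13 (vehicle), 4 (LPS), 7 (LPS + Dex), 7 (DAMPs) and 32 (DAMPs + Dex). Without a filter the genotype counts were 92 (vehicle), 450 (LPS) and 146 (LPS + Dex), and genotype differences numbered 118 for LPS, 21 for Dex, 75 for LPS + Dex against LPS, 2 for DAMPs and 9 for DAMPs + Dex. A mean of at least 5 FPKM gave genotype counts of 27 (vehicle) and 54 (DAMPs), and a pseudocount of 0.1 gave 41 (DAMPs). Genotype differences numbered 4 for Dex when centred, 1 each for LPS, Dex and LPS + Dex against LPS with quantile normalization, and 3 for LPS with no moderation.

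With a library left out, wild-type counts ranged over 5291 to 5978 (LPS), 2442 to 3210 (Dex), 2670 to 4085 (LPS + Dex against LPS), 5387 to 6343 (LPS + Dex against vehicle), 27 to 374 (DAMPs), 2204 to 2485 (DAMPs + Dex) and 2507 to 4384 (dependence of Dex on LPS). For the label AMPKα1-/- they were 6721 to 7047, 2408 to 2753, 3660 to 4040, 5654 to 6347, 268 to 456, 2249 to 2644 and 2850 to 3196 in that order. Genotype counts ranged over 28 to 58 (vehicle), 305 to 3106 (Dex), 9 to 133 (LPS), 36 to 110 (LPS + Dex), 25 to 55 (DAMPs) and 49 to 97 (DAMPs + Dex), and genotype differences over 0 to 12 (LPS), 0 to 1 (Dex), 0 to 2 (LPS + Dex against LPS) and 0 for both others. The lowest wild-type DAMPs count was without DAMPs replicate 3, and the lowest genotype count under Dex without wild-type Dex replicate 2.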
